A study of Fundulus heteroclitus with 20 samples.

Results

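The deposited table classes 1058 genes of the mummichog (Fundulus heteroclitus, a killifish) as non-coding RNA (ncRNA). Of these, 301 had at least 10 counts in every one of the 20 libraries and are described here as well-counted ncRNA genes. They were chosen on their counts alone, so their level is a description with no test. The same cutoff kept 9330 of 12468 protein-coding genes, which were used for comparison. Thus 28.4% of the ncRNA genes and 74.8% of the protein-coding genes in the deposited table passed, and 118 ncRNA genes had no count in any library.

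Genes annotated as ncRNA in a fish genome are mostly long non-coding RNAs, which are transcribed and often spliced like mRNAs but have no recognized reading frame. In vertebrate brain, long non-coding RNAs are known for lower levels and narrower cell type distribution than mRNAs, and for sequences that are poorly conserved between species. Some act on the gene beside them, some hold nuclear proteins together, and for most no function is known. All 301 genes were described in the table as uncharacterized, so none could be given a role from its name there.

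The study examined the response of the brain of a fish to mechanical injury. In 10 anesthetized adult mummichogs, a needle was pushed through the tectum and tegmentum of 1 midbrain hemisphere into the hypothalamus beneath. At 1 h post-lesion the lesioned hemisphere of the midbrain/diencephalon and the contralateral, intact hemisphere were taken as separate samples, which gave 10 lesioned and 10 intact libraries. Every fish was lesioned and anesthetized, so the intact hemisphere is a control within an injured animal and no uninjured fish was sequenced. The fish came from a commercial supplier, and their strain, sex and relatedness are not given in the sources used here. The labels place all lesioned hemispheres on the right and all intact hemispheres on the left, while the methods of the study state that sides were balanced. As labelled, side and lesion cannot be told apart. The labels name a SMART-Seq library kit where the methods name TruSeq.

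The libraries held 9213580 to 11070103 counts on listed genes, so 1 CPM, a count scaled to a library total of 1000000, is about 10 counts. Both hemispheres of a fish deviated together from their group means, with correlations across genes of 0.385 to 0.731, against -0.207 to 0.201 between different fish. Neuronal markers summed to 14414 to 18313 CPM in lesioned and 13022 to 19597 CPM in intact hemispheres, and midbrain markers to 173 to 226 CPM in lesioned and 152 to 231 CPM in intact hemispheres. Cerebellar markers were also present, at 644 to 1188 CPM in lesioned and 299 to 1372 CPM in intact hemispheres. Skeletal muscle markers summed to 17.1 to 150 CPM in lesioned and 15.1 to 27.2 CPM in intact hemispheres. Of the 56 genes tested from 9 marker lists, 1 midbrain gene (1.79%) passed an adjusted p-value of 0.1 between hemispheres, against 1.38% of all genes tested. In these bulk samples, fewer cells of a type and less RNA per cell cannot be told apart.

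The well-counted ncRNA genes were low in counts relative to coding genes. Their mean count per library ran from 15.4 to 10519 with a median of 107.3, and the middle 50% lay between 47.85 and 257.4. Protein-coding genes past the same cutoff had a median of 402.6. Transcript lengths were not used, so these values say how many reads a gene received and not how abundant its transcript was.

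Together the 301 genes took about 1% of the counts on listed genes in either hemisphere. Listed genes hold fewer counts than the reads the study reports as uniquely mapped, so this is not a share of all reads. Their share was 0.976% to 1.05% in lesioned hemispheres, with a mean of 1.015% ± 0.0247, and 0.962% to 1.06% in intact hemispheres, with a mean of 1.025% ± 0.0299 (SD, n = 10 each). The difference within a fish was -0.0101 ± 0.0409 percentage points, and the share was higher in the lesioned hemisphere in 4 of 10 fish. The share therefore differed between hemispheres by less than its spread between fish.

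The reads were unevenly divided among the genes. The first gene had 10.1% of the counts on the 301 genes, the first 5 had 27.8% and the first 30 had 61.4%. LOC105927218 had the most, at 903 to 1125 CPM (median 997) in lesioned and 859 to 1191 CPM (median 1083) in intact hemispheres. LOC105919264 followed, at 569 to 666 CPM (median 614) in lesioned and 522 to 671 CPM (median 643) in intact hemispheres. LOC105916290 had 429 to 552 CPM (median 489) in lesioned and 434 to 549 CPM (median 473) in intact hemispheres. In each of the 3 the hemispheres overlapped over nearly their whole range. LOC105926404 had 337 to 431 CPM (median 389) in lesioned and 310 to 451 CPM (median 390) in intact hemispheres. A newer RefSeq gene table of the mummichog lists this gene as the protein-coding rpl38, which encodes a protein of the large ribosomal subunit. LOC105934872, listed there as a long non-coding RNA, had 279 to 334 CPM (median 299) in lesioned and 239 to 335 CPM (median 298) in intact hemispheres. None of these 5 genes passed the test between hemispheres, and their log2 fold changes lay between -0.07 and 0.02.

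At the other end, the cutoff separated genes of much the same level. LOC105918263, LOC105916737 and LOC105940241 each had 10 counts in their lowest library and were kept, with mean counts of 15.4, 20.7 and 22.7. LOC105918567, LOC105926343 and LOC105922668 each had 9 counts in their lowest library and were left out, with mean counts of 37.8, 37.25 and 26.75. The genes just outside thus had more counts on average than those just inside, and a larger range between libraries. A gene that dropped in some libraries is by this rule less likely to be kept, which bears on every value of spread and change that follows.

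The newer RefSeq table, made on another assembly (MU-UCD_Fhet_4.1), lists 60 of the 301 genes, or 19.9%, against 8793 of the 9330 coding genes, or 94.2%. Of the 60, 40 are classed there as long non-coding RNA and 20 as protein-coding. Besides rpl38, the protein-coding entries include LOC105935424 as atp5mpl, a small subunit of the mitochondrial ATP synthase, LOC105938297 as lsm4, a protein of the spliceosomal Sm-like ring, and LOC105924354 as sass6, a centriole assembly protein. LOC105922951 is listed as hspa12a, a relative of the 70-kDa heat shock proteins, and LOC105923861 as abhd12, a lipid hydrolase. LOC105921047 is listed as timd4, a receptor of phagocytes for phosphatidylserine in mammals, and 1 of the 40 long non-coding entries, LOC105924448, carries the symbol smfn. None of these 8 named genes, which were picked because they have a name, passed an adjusted p-value of 0.1. Their class in the deposited table was kept for all counts given here.

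The question of spread is how far fish differ from each other in these genes. Spread was measured as the coefficient of variation between fish beyond counting error, the square root of the edgeR dispersion, in each hemisphere separately. edgeR draws the dispersion of each gene towards that of genes of similar level. Values of the classes at matched level are thus drawn together, and the smallest spreads are drawn upward. For the ncRNA genes its median was 0.188 in lesioned and 0.188 in intact hemispheres. For protein-coding genes it was 0.130 in lesioned and 0.138 in intact hemispheres. Spread falls with level in both classes, so the classes were also set side by side within steps of 1 log2 CPM.

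At matched level in intact hemispheres the ncRNA genes did not have the larger spread at the low end. From 2 to 3 log2 CPM, 68 ncRNA genes had a median of 0.231 in intact hemispheres and 817 coding genes had 0.258. From 3 to 4 log2 CPM, 59 ncRNA genes had 0.178 and 1237 coding genes had 0.196. From 4 to 5 log2 CPM the medians were 0.147 for 53 ncRNA genes and 0.150 for 1579 coding genes. The order turned above this level. From 6 to 7 log2 CPM, 11 ncRNA genes had 0.121 and 1584 coding genes had 0.106, and from 7 to 8 log2 CPM, 13 ncRNA genes had 0.110 and 1043 coding genes had 0.0984. The ncRNA median was also higher from 5 to 6 (0.123 against 0.117) and, for 6 genes, above 8 log2 CPM (0.112 against 0.101). Lesioned hemispheres had the same order up to 4 and from 5 to 8 log2 CPM. In them the ncRNA median was already higher from 4 to 5 (0.143 against 0.142) and was lower above 8 log2 CPM (0.0807 against 0.0866). All these values are descriptions, since genes are not replicates and level is part of the cutoff.

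**Figure D1:**
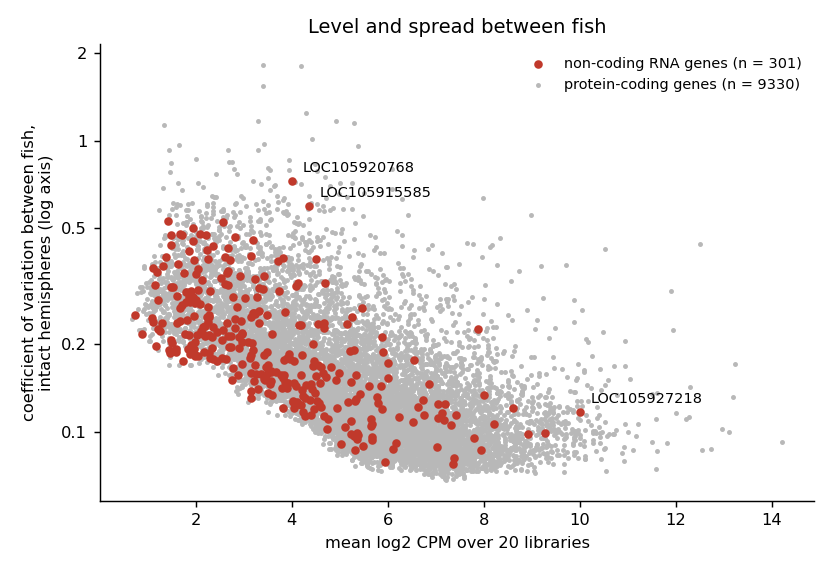
Coefficient of variation between fish in the 10 intact hemispheres (log axis) against mean log2 CPM over 20 libraries, with 301 ncRNA genes as red points over 9330 protein-coding genes in grey. The ncRNA genes sit mostly at the low-count end, where both classes spread most, and LOC105920768 stands highest among them at 0.725.

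The ncRNA gene with the largest spread in intact hemispheres was LOC105920768. It had 1.26 to 45.0 CPM (median 17.2) in lesioned and 1.5 to 53.5 CPM (median 17.5) in intact hemispheres, a 42.4-fold range over all libraries. Its coefficient of variation was 0.709 in lesioned and 0.725 in intact hemispheres. Fish 3 was lowest in both hemispheres. The values of a fish agreed closely between its hemispheres, with Pearson r = 0.997 and Spearman rho = 0.976 (n = 10 fish, permutation p = 1e-05 and 4e-05, two-sided). The first of these is the smallest p that 100000 resamples give, and over the 8 genes tested in this way its adjusted permutation p was 4e-05. Without the 2 fish farthest from the median, r was 0.994.

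LOC105915585 was second by its spread in intact hemispheres, the measure by which these 5 genes were chosen, with 6.18 to 55.0 CPM (median 21.4) in lesioned and 6.59 to 61.0 CPM (median 18.5) in intact hemispheres. Its r between hemispheres was 0.985 and its rho 1.0 (n = 10, permutation p = 1e-05 for each, adjusted p of r 4e-05), and r was 0.974 without 2 fish. The order of the 10 fish was thus the same in both hemispheres. LOC105924527 had 1.96 to 19.4 CPM (median 6.19) in lesioned and 2.47 to 19.4 CPM (median 5.26) in intact hemispheres. Its highest values in both hemispheres came from fish 6. Its r was 0.967 and its rho 0.927 (n = 10, permutation p = 2e-05 and 0.00031, adjusted p of r 5.3e-05), with 0.895 without 2 fish. The newer table lists it as protein-coding.

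LOC105924685 had 1.26 to 5.43 CPM (median 2.25) in lesioned and 1.05 to 5.87 CPM (median 1.84) in intact hemispheres, with r = 0.922 and rho = 0.758 (n = 10, permutation p = 0.0005 and 0.015, adjusted p of r 0.001) and r = 0.846 without 2 fish. LOC105926313 differed from the other 4. It had 1.78 to 8.81 CPM (median 3.09) in lesioned and 1.38 to 9.2 CPM (median 3.52) in intact hemispheres, and its r of 0.673 and rho of 0.37 had permutation p = 0.033 and 0.3 (n = 10, adjusted p of r 0.052). Its r was 0.278 without 2 fish, so the relation rests on those fish.

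**Figure D2:**
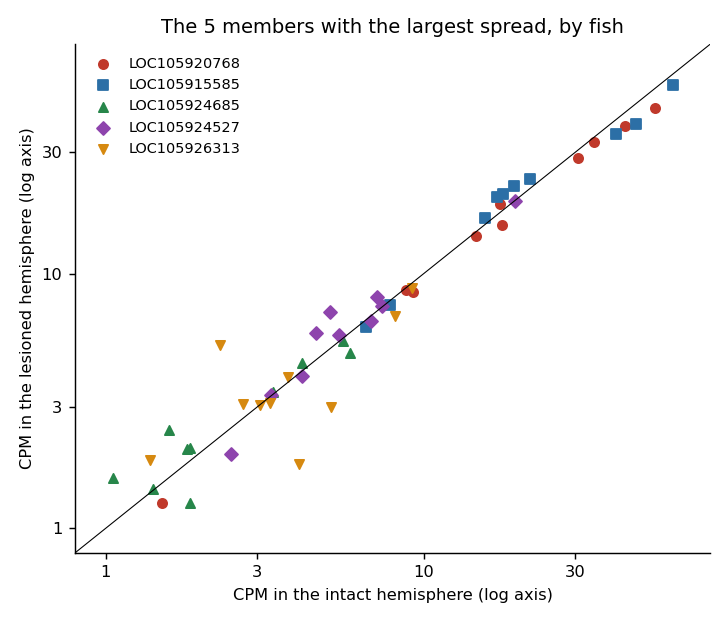
CPM in the lesioned hemisphere against CPM in the intact hemisphere of the same fish (both log axes) for the 5 ncRNA genes with the largest spread, 10 fish each, with the line of equal values. Points of LOC105920768 and LOC105915585 lie along the line over their whole range, while those of LOC105926313 scatter around it.

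The 3 genes with the smallest spread in intact hemispheres were chosen for differing little between fish, which limits any correlation between hemispheres. LOC105932806 had 146 to 188 CPM (median 170) in lesioned and 151 to 176 CPM (median 157) in intact hemispheres, with r = -0.124 and rho = -0.115 between hemispheres (permutation p = 0.74 and 0.76, n = 10) and r = -0.195 without 2 fish. LOC105926711 had 53.4 to 64.4 CPM (median 61.4) in lesioned and 58.4 to 65.2 CPM (median 62.0) in intact hemispheres, with r = -0.349 and rho = -0.297 (permutation p = 0.35 and 0.41, n = 10) and r = -0.443 without 2 fish. LOC105915480 had 155 to 182 CPM (median 170) in lesioned and 148 to 176 CPM (median 162) in intact hemispheres, with r = 0.0396 and rho = 0.139 (permutation p = 0.91 and 0.71, n = 10) and r = -0.375 without 2 fish. The adjusted permutation p-values of r were 0.85, 0.47 and 0.91.

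Over all 301 genes, the correlation between hemispheres had a median of 0.519 and ran from -0.54 to 1.00, against a median of 0.597 in coding genes. It was above 0.9 in 30 ncRNA genes (9.97%) and in 919 coding genes (9.85%), and below 0 in 35 ncRNA genes (11.6%) and 877 coding genes (9.40%). The classes were again set side by side within steps of level. From 3 to 4 log2 CPM the medians were 0.468 for ncRNA and 0.569 for coding genes. From 4 to 5 log2 CPM they were 0.607 for ncRNA and 0.582 for coding genes. The ncRNA median was also lower from 1 to 2 (0.472 against 0.492) and from 2 to 3 log2 CPM (0.451 against 0.573). The same held from 5 to 6 (0.54 against 0.612) and above 8 log2 CPM (0.3 against 0.639). The ncRNA median was higher below 1 (0.384 against 0.276), from 6 to 7 (0.676 against 0.618) and from 7 to 8 log2 CPM (0.643 against 0.62). Some of these steps held few ncRNA genes, with 2 below 1, 11 from 6 to 7, 13 from 7 to 8 and 6 above 8 log2 CPM. Of the 19 ncRNA genes with a coefficient of variation above 0.4 in intact hemispheres, 10 had a correlation above 0.9. The same count was not made in coding genes, so this is not shown to be particular to ncRNA genes. After LOC105920768 and LOC105915585, the highest correlation was 0.984, in LOC105921186, which had 1.85 to 9.74 CPM (median 4.13) in lesioned and 1.68 to 9.93 CPM (median 4.39) in intact hemispheres. The lowest were -0.536 in LOC105930450, -0.528 in LOC105916433 and -0.524 in LOC105918174. LOC105930450 had 2.41 to 3.9 CPM in lesioned and 2.86 to 4.35 CPM in intact hemispheres. LOC105916433 had 19.6 to 22.9 CPM in lesioned and 15.9 to 24.7 CPM in intact hemispheres. For LOC105918174 the values were 2.09 to 4.06 CPM in lesioned and 1.78 to 2.77 CPM in intact hemispheres.

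The lesion comparison asks which of these genes differed between the lesioned and intact hemispheres of the same fish at 1 h. Counts of 10513 genes were tested together with edgeR's quasi-likelihood test with fish as a block, and p-values were adjusted over all of them by the Benjamini-Hochberg method. Of the 301 ncRNA genes, 2 (0.664%) passed an adjusted p-value of 0.1, and both, LOC105930718 and LOC105924148, were higher in the lesioned hemisphere. Of all 10513 genes, 145 passed (1.38%), 135 of them higher in the lesioned hemisphere (1.28%) and 10 lower (0.0951%). Of the 9330 coding genes, 133 passed (1.43%), 1.33% higher and 0.0965% lower. The looser cutoff of 0.4, which the study also used, took in 19 ncRNA genes (6.31%), of which 10 were higher (3.32%) and 9 lower (2.99%) in the lesioned hemisphere. It took in 10.1% of all genes, 6.12% higher and 3.97% lower, and 10.6% of coding genes, 6.46% higher and 4.11% lower. The study's own DESeq2 test reported more genes at 0.1 and fewer at 0.4 than this fit, so these are not its lists. At an unadjusted p-value under 0.05 there were 21 ncRNA genes (6.98%), 11 of them lower in the lesioned hemisphere, against 11.7% of all genes and 12.2% of coding genes. The share of ncRNA genes called was below the background at each cutoff, though at 0.1 it rests on only 2 genes. Their lower level and larger errors were not matched in these counts, so no deficit particular to ncRNA genes is shown.

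The fold changes were small and split evenly by direction. The median log2 fold change, lesioned over intact, was 0.0038 in the ncRNA genes, against -0.0081 in coding genes and -0.0087 in all genes tested. It was positive in 154 ncRNA genes and negative in 147, and 214 lay within 0.1 of 0. The range was -0.50 to 0.37 in ncRNA genes and -0.87 to 2.50 in coding genes. Past 0.3 in either direction were 7 ncRNA genes (2.33%) and 223 coding genes (2.39%). The median absolute log2 fold change was 0.064 in ncRNA and 0.045 in coding genes, without matching for level. The median standard error was 0.079 for ncRNA and 0.049 for coding genes, so a change of a given size was harder to call among the ncRNA genes. Within steps of level the order of the classes varied. From 2 to 3 log2 CPM 1 of 68 ncRNA genes (1.47%) and 58 of 817 coding genes (7.10%) passed 0.4, and the share was also lower in ncRNA genes from 3 to 4 (5.08% against 7.6%), from 4 to 5 (7.55% against 9.37%) and from 5 to 6 log2 CPM (5.88% against 9.92%). It was higher in ncRNA genes from 1 to 2 (7.27% against 6.26%), from 6 to 7 (18.2% against 12.2%) and from 7 to 8 log2 CPM (15.4% against 14.7%). Above 8 log2 CPM it was 16.7% in ncRNA, or 1 of 6 genes, and 17% in coding genes. All these shares rest on few ncRNA genes. The steps where the share was higher held 4, 2 and 2 that passed, and those where it was lower held 1, 3, 4 and 2.

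**Figure D3:**
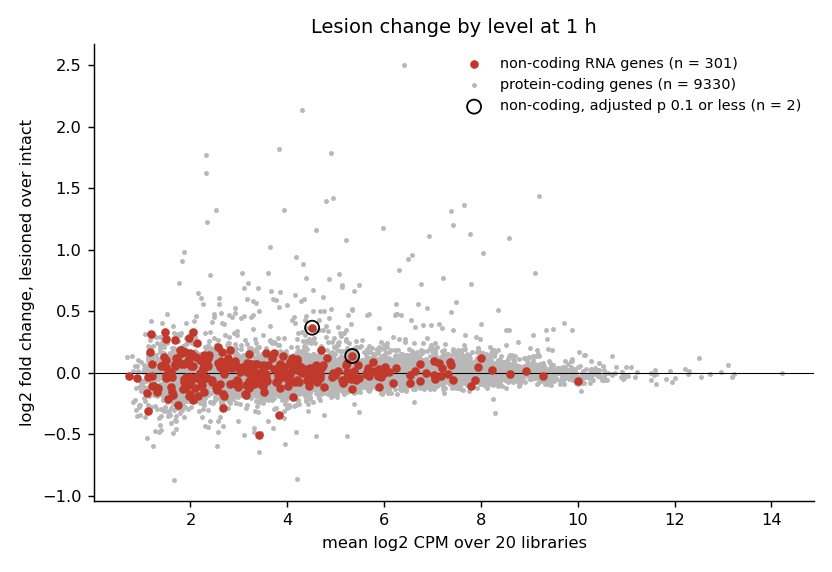
Log2 fold change of lesioned over intact hemispheres against mean log2 CPM, with 301 ncRNA genes in red over 9330 protein-coding genes in grey, and the 2 ncRNA genes past an adjusted p-value of 0.1 circled. The ncRNA genes lie between -0.50 and 0.37, and some of the far more numerous coding genes lie further out. Past 0.3 in either direction lie 2.33% of ncRNA and 2.39% of coding genes.

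LOC105930718 had the larger of the called changes. It had 18.8 to 30.7 CPM (median 26.6) in lesioned and 16.2 to 26.2 CPM (median 19.7) in intact hemispheres, with means of 26.02 ± 4.16 CPM and 20.1 ± 2.91 CPM (SD, n = 10 each). The ranges overlapped, but the lesioned hemisphere was higher in 9 of 10 fish, fish 5 being the exception. The log2 fold change was 0.37 with a standard error of 0.078 (adjusted p = 0.041, edgeR's quasi-likelihood test). Without fish 1, 4, 8, 9 or 10 in turn, the adjusted p-value was 0.124, 0.123, 0.135, 0.103 and 0.1 and the gene was not called, while the log2 fold change stayed at 0.34 to 0.37. Without the fish block the adjusted p-value was 0.157, with DESeq2 it was 0.00925 and without fish 5 it was 0.00139.

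The gene that follows LOC105930718 in the numbering of the deposited table is rhob, a small GTPase that is an immediate early gene in mammalian cells. The numbers largely follow the order of the annotation. Of 8345 pairs of consecutive numbers placed in the newer assembly, 95.7% lay on the same chromosome and 89.8% at most 2 places apart. Neither LOC105930718 nor rhob is listed there, so this pair was not among them and its adjacency was not checked. rhob had 14 to 31.0 CPM (median 24.7) in lesioned and 13.3 to 22.3 CPM (median 14.9) in intact hemispheres. The ranges overlapped, and the lesioned hemisphere was higher in 10 of 10 fish. The log2 fold change was 0.58 with a standard error of 0.078 (adjusted p = 0.00106, edgeR's quasi-likelihood test). The gene after rhob, pum2, an RNA-binding translational repressor, differed by -0.02 on the log2 scale (adjusted p = 0.831, edgeR).

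The smallest ratios of LOC105930718 and rhob came from the same 2 fish. In fish 2 the log2 ratio of lesioned to intact was 0.05 for LOC105930718 and 0.07 for rhob, and in fish 5 it was -0.22 for LOC105930718 and 0.09 for rhob. The other 8 fish had 0.25 to 0.71 for LOC105930718 and 0.58 to 0.81 for rhob. Over 10 fish the ratios had r = 0.843 and rho = 0.564 (permutation p = 0.0084 and 0.096, two-sided, adjusted p of r 0.017 over 2 pairs). Without the 2 fish farthest from the median r was 0.158, so the relation rests on those 2 fish and was not seen in the other 8. Whether reads were counted by strand is not given in the sources used here, and reads of a gene and an overlapping or antisense partner could not be told apart.

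LOC105924148 had the smaller called change. It had 34.9 to 51.4 CPM (median 42.0) in lesioned and 31.8 to 49.8 CPM (median 37.0) in intact hemispheres, with means of 42.6 ± 5.74 CPM and 38.9 ± 6.33 CPM (SD, n = 10 each). The groups overlapped almost fully, while within fish the lesioned hemisphere was higher in 10 of 10. The log2 ratio was 0.0047 in fish 3, the lowest, and 0.25 in fish 1, the highest. The log2 fold change was 0.14 with a standard error of 0.032 (adjusted p = 0.064, edgeR's quasi-likelihood test). Its level was shared by the hemispheres of a fish (r = 0.938 over 10 fish), and without the fish block the adjusted p-value was 1.0. In 12 of 17 other fits it was not called, with log2 fold changes of 0.12 to 0.15 in all of them. Those fits include leaving out fish 1, 2, 4, 6, 7, 8, 9 or 10. The gene before it in the numbering, LOC105924147, also belongs to the well-counted ncRNA genes and differed by 0.07 on the log2 scale (adjusted p = 0.890, edgeR).

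**Figure D4:**
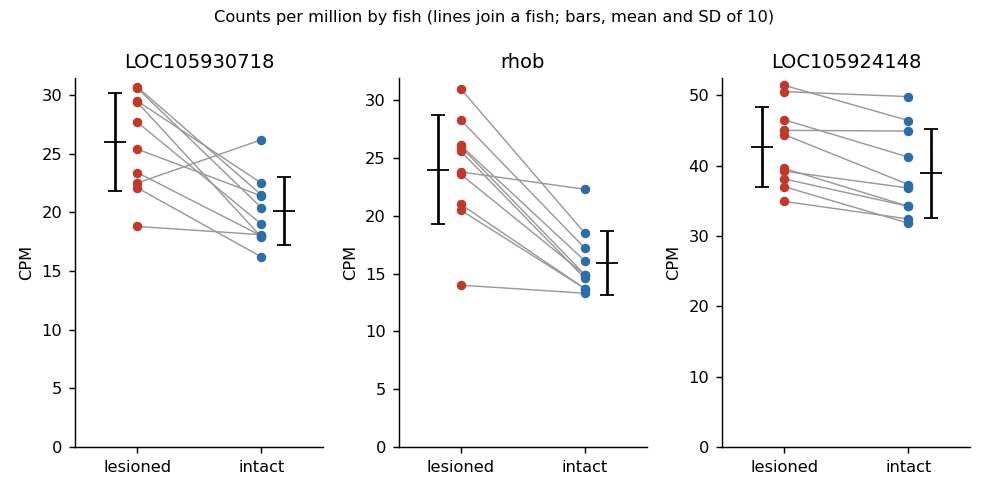
CPM in lesioned (left, red) and intact (right, blue) hemispheres of 10 fish for LOC105930718, rhob and LOC105924148, with lines joining the hemispheres of a fish and bars for the mean and SD. The line falls to the right in 9 of 10 fish for LOC105930718 and in 10 of 10 for rhob and for LOC105924148, where the drop is small against the distance between fish.

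Between adjusted p-values of 0.1 and 0.4 lay 17 ncRNA genes, of which the 3 higher and 5 lower ones with the smallest p-values are given as values only. LOC105935252 had 1.85 to 3.22 CPM (median 2.32) in lesioned and 1.5 to 2.29 CPM (median 1.82) in intact hemispheres, higher in the lesioned hemisphere in 10 of 10 fish (log2 fold change 0.32, adjusted p = 0.330, edgeR). LOC105924448 had 2.20 to 6.53 CPM (median 4.04) in lesioned and 1.62 to 6.39 CPM (median 3.24) in intact hemispheres (0.28, adjusted p = 0.325, edgeR). LOC105919217 had 10.1 to 15.7 CPM (median 11.8) in lesioned and 9.56 to 12.7 CPM (median 10.7) in intact hemispheres (0.16, adjusted p = 0.354, edgeR). All 3 overlapped between hemispheres.

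On the lower side, LOC105924082 had 6.89 to 20.1 CPM (median 13.2) in lesioned and 7.08 to 32.9 CPM (median 15.8) in intact hemispheres, lower in the lesioned hemisphere in 8 of 10 fish (log2 fold change -0.34, adjusted p = 0.197, edgeR). LOC105924979 had 22.7 to 29.6 CPM (median 25.9) in lesioned and 24.2 to 32.4 CPM (median 28.0) in intact hemispheres, lower in 9 of 10 fish (-0.12, adjusted p = 0.257, edgeR). LOC105934550 had 66.1 to 77.5 CPM (median 70.2) in lesioned and 64.2 to 80.2 CPM (median 75.7) in intact hemispheres (-0.08, adjusted p = 0.324, edgeR). These 3 overlapped between hemispheres as well. LOC105924014, listed as protein-coding in the newer table, had 7.59 to 28.9 CPM (median 17.2) in lesioned and 8.47 to 29.7 CPM (median 19.3) in intact hemispheres, lower in 9 of 10 fish (-0.19, adjusted p = 0.346, edgeR). LOC105927233 had the most negative fold change of the 301 genes, -0.50 with a standard error of 0.21 (adjusted p = 0.364, edgeR). It had 6.01 to 17.8 CPM (median 8.06) in lesioned and 8.81 to 21.0 CPM (median 10.8) in intact hemispheres, and its log2 ratio ran from -1.34 to 0.80 between fish, so its fold change stood for fish that disagreed.

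The count cutoff left out 1 ncRNA gene that passed an adjusted p-value of 0.1 and was lower in the lesioned hemisphere. LOC105924533 had 0.518 to 3.18 CPM (median 1.26) in lesioned and 1.43 to 4.44 CPM (median 2.42) in intact hemispheres, with 5 counts in its lowest library. Its log2 fold change was -0.83 (adjusted p = 0.0885, edgeR's quasi-likelihood test), and it was lower in 9 of 10 fish. At a cutoff of 5 counts in every library it would belong to the set, so the count of 0 called decreases in edgeR's test, also 0 in DESeq2's, holds for the cutoff of 10, while edgeR gives 1 at that of 5.

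Since LOC105930718 lies beside a called gene in the numbering, the neighbours of all ncRNA genes were listed. Of the 281 ncRNA genes with a tested neighbour, 9 (3.20%) lay beside a called gene, against 205 of 8914 coding genes (2.30%). For most of the 9 the ncRNA gene did not pass. LOC105938311 lay beside LOC105938309, a transcription factor jun-D-like gene of the AP-1 family, with a change of 0.10 on the log2 scale (adjusted p = 0.375) against 0.49 (adjusted p = 0.00451) for its neighbour in edgeR's test. LOC105916410 lay beside bcl2l10, a member of the Bcl-2 family that regulates cell death, with -0.13 (adjusted p = 0.383) against 0.43 (adjusted p = 0.00232) in the same test. LOC105918975 lay beside LOC105918977, a Myc-2-like transcription factor, with -0.03 (adjusted p = 0.762) against 0.61 (adjusted p = 0.0123). LOC105919109 lay beside LOC105919110, a 70-kDa heat shock chaperone, with -0.04 (adjusted p = 0.944) against 0.57 (adjusted p = 0.0283). LOC105937868 lay beside LOC105937858, a FAM110A-like gene, with -0.03 (adjusted p = 0.897) against 0.39 (adjusted p = 0.000216) in edgeR's test. LOC105922912 lay beside tjap1, with 0.05 (adjusted p = 0.780) against 0.26 (adjusted p = 0.0476). LOC105933405, with -0.08 (adjusted p = 0.661), lay beside pou3f2, which was lower at -0.15 (adjusted p = 0.0853). LOC105924147 lay beside LOC105924148, as given above. Besides LOC105930718, no ncRNA gene beside a called gene passed 0.1. Across pairs, the fold changes of ncRNA genes and adjacent coding genes correlated at 0.084, and those of adjacent coding genes at 0.048, as a description over genes.

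The levels of adjacent genes over libraries were also set side by side. In 408 pairs of an ncRNA gene and an adjacent coding gene, log2 CPM over the 20 libraries correlated with a median of 0.225, against 0.0382 in 6772 pairs of adjacent coding genes. A correlation above 0.8 was found in 34 ncRNA pairs (8.33%) and 72 coding pairs (1.06%). The highest was 0.960 for LOC105916606 and tmod3, a tropomodulin that caps actin filaments, followed by 0.959 for LOC105926765 and slc25a36, a mitochondrial nucleotide carrier. LOC105936927 and dlg1, a scaffold protein of synapses and epithelial junctions, had 0.952, LOC105935286 and plp2, a membrane proteolipid, 0.942, and LOC105930718 and rhob 0.932. LOC105915709 and pea15, an astrocyte-enriched phosphoprotein, had 0.929, and LOC105922579 and rgn, a calcium-binding protein, 0.923. Also among the highest were LOC105925478 and the uncharacterized LOC105925477 at 0.954. LOC105921096 and LOC105921095, a thioredoxin-related transmembrane protein gene, had 0.951. LOC105920582 and LOC105920580, a phosphodiesterase 1C-like gene, had 0.931. The 20 libraries come from 10 fish and are not independent, so these values carry no p. Base composition and depth of the libraries were not tested as a source of them. They pool both hemispheres, so the lesion change that LOC105930718 and rhob share enters their 0.932. Strand and overlap of the paired genes were not tested.

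**Figure D5:**
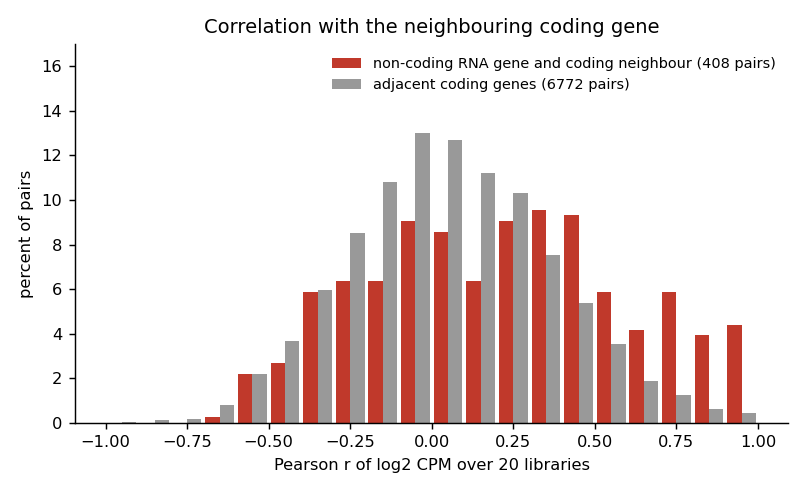
Pearson correlation of log2 CPM over 20 libraries between adjacent genes, as the percent of pairs in steps of 0.1, for 408 pairs of an ncRNA gene and a coding gene (red) and 6772 pairs of coding genes (grey). The red bars exceed the grey ones at every step from 0.3 upward, and 8.33% of ncRNA pairs lie above 0.8 against 1.06% of coding pairs.

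Genes that process or degrade non-coding RNA were examined as a list of 53 symbols, of which 26 were found and tested. The list covers the exosome, the Integrator complex, the microRNA pathway and the H/ACA and C/D small nucleolar particles. None passed an adjusted p-value of 0.1 in edgeR's test or in DESeq2's. In edgeR's test 3 of 26 (11.5%) passed 0.4, close to the 10.1% of all genes tested, and all 3 were lower in the lesioned hemisphere. In the same test 3 had an unadjusted p-value under 0.05, against 0 in DESeq2's. These were dkc1 and nhp2, proteins of the H/ACA particle, with log2 fold changes of -0.08 and -0.14, and exosc3, an exosome subunit, with -0.13. The median of the list was -0.03, against -0.0087 in all genes tested.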

How the data were processed

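Total RNA of paired hemispheres of 10 fish was sequenced as 20 libraries. Per the submitters' processing notes and the methods of the study, the authors trimmed reads with cutadapt 1.11 after FastQC 0.11.5, aligned them with STAR and assigned them to genes with HTSeq. The authors deposited raw integer counts for each gene in each library, neither normalized nor pooled. Columns of the authors' own DESeq2 comparison (mean, fold change, p-values) were not used. Of 16264 rows, 2585 transfer RNA rows were left out. Their counts were at most 0.00458% of those on the other rows of a library. The 13679 remaining genes included 153 pseudogene rows.

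Groups and fish came from the labels. Both hemispheres of a number come from 1 animal, which pairs the libraries; their deviations correlated at a median of 0.579. The test was edgeR 4.0.16 under R 4.3.3 (TMM, filterByExpr with a minimum count of 10 and total of 15, quasi-likelihood, fish as a block) over 10513 genes. Log2 CPM used a prior count of 2. At these totals 10 counts are about 1 CPM. On simulated data of 10483 genes, the test found 99% of those with a true log2 change of 1 and 83% of those with 0.5. Of the genes called there, 7.61% were unchanged. The changed genes were drawn from all genes tested and no smaller change was simulated, so these are not rates for the ncRNA genes. Alternatives were other scalings, filters and member cutoffs, DESeq2 1.42.0, no block, and leaving out each fish. Permutation tests used Python 3.11.15 with 100000 resamples.

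The ncRNA genes and lists (cell type markers, ncRNA processing genes) were chosen with earlier results of these data known. Genes were named by rule: called at 0.1, up to 5 per direction at 0.4, the 5 with most counts, the 5 with the largest and 3 with the smallest spread, the 3 on either side of the cutoff, the 3 with the lowest and highest hemisphere correlation, and neighbours of called genes. The genes named from the newer RefSeq table, the other neighbour pairs and LOC105924533 were chosen after their values were seen. Neighbours were read from the gene numbers of the deposited table, and names from the RefSeq table of assembly MU-UCD_Fhet_4.1, whose build differs from the authors', so no coordinates are given.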

Additional observations from a re-analysis of the deposited data

Results flagged for a closer look

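In 29 groups of 10 values searched, 4 held a value far from the others by Dixon's limit, which chance passes in about 1 in 20 independent groups. The groups here are not independent: 2 of the 4 are the hemispheres of 1 fish, and LOC105920768 and LOC105924527 were named for their large spread. LOC105920768 in fish 3 had a log2 CPM of 0.544 in the lesioned hemisphere, against 3.12 to 5.50 in the other fish, and 0.759 in the intact hemisphere, against 3.17 to 5.75. LOC105924527 in fish 6 had a log2 CPM of 4.29 in the intact hemisphere, against 1.41 to 2.92 in the other fish. LOC105926711 in fish 2 had a log2 CPM of 5.74 in the lesioned hemisphere, against 5.88 to 6.01 in the other fish.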

How the results depend on the processing

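The number of ncRNA genes at an adjusted p-value of 0.1 was 2, and was 1 with upper quartile scaling, 1 with no filter, 1 with DESeq2 and 0 with no replicate block, that is without the pairing by fish. It was 0 to 2 without 1 fish. At 0.4 the number was 19, and was 4 with no filter, 4 with DESeq2 and 1 with no replicate block. It was 4 to 37 without 1 fish, with 4 without fish 8 or fish 9 and 37 without fish 3. Over all genes the share at 0.4 moved likewise, at 10.1%, 5.03% with no filter, 3.52% with DESeq2, 0.837% with no block, 2.65% without fish 8, 3.02% without fish 9 and 19.6% without fish 3. At 0.1, 1.38% of all genes passed, and 0.978% did with no filter, 1.67% with DESeq2 and 0.542% with no block. The median log2 fold change was -0.0108 to 0.0124 without 1 fish. As an SD of log2 CPM, a measure on another scale that includes counting error, the median spread was 0.239. The median coefficient of variation of 0.188 was 0.213 at a member cutoff of 5 counts (357 genes) and 0.175 at 20 counts (255 genes). Without 1 fish it was 0.190 to 0.198, with 0.133 to 0.141 in coding genes. The difference in share was -0.0157 to -0.00238 percentage points without 1 fish. LOC105930718 was called in 11 of 17 other fits and LOC105924148 in 5, and none of the 10 genes named for their change turned direction in any. The cause of these differences was not tested. With a median standard error of 0.079 on the log2 scale, small changes were not detectable in many of these genes. LOC105924148, with a standard error of 0.032, was called at 0.14. With fish as a block, the p-values rest on how the difference between hemispheres varied over these 10 fish.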

Other observations

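The ncRNA genes differed by their class in the newer RefSeq table, a split made after their values were seen and given without a test. Of the 40 genes classed there as long non-coding RNA, the lesioned hemisphere was higher in 10 and lower in 30, with a median log2 fold change of -0.07, and none was called at 0.1. Of the 241 genes it does not list, 135 were positive and 106 negative, with a median of 0.02 and both called genes among them. Of the 20 genes it classes as protein-coding, 9 were positive and 11 negative, with a median of -0.0029. Spread between fish in intact hemispheres had a median of 0.216 in the 40, 0.184 in the 241 and 0.256 in the 20, and the correlation between hemispheres a median of 0.63, 0.471 and 0.804. The classes had similar counts, with median mean counts of 126.1, 107.3 and 95.2. The genes of a class share the 10 fish and are not independent.

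The median log2 ratio over all 301 ncRNA genes within a fish ran from -0.087 to 0.058 (SD 0.046 over 10 fish), and that over coding genes from -0.017 to 0.0081 (SD 0.0074). Coding genes hold nearly all counts on listed genes and set the scaling of a library. Their medians thus lie near 0 by construction, and the contrast was not tested.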
